A study of Mus musculus with 6 samples.

Results

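The keratin gene family was examined in dorsal skin of 3 Cbl-b-/- and 3 wild-type (WT) mice, taken 24 h after UVB (80 mJ/cm2, given once) and hybridized to Affymetrix Mouse Gene 1.0 ST arrays, 1 array per biological replicate. Members were the transcript clusters (the array's unit for a gene) that carry a single gene symbol made of Krt and a number, and 52 of the 19938 genes with a transcript cluster of their own qualified, each with 1 cluster. They were sorted by the site at which each keratin is known to be made into 3 basal, 5 suprabasal, 4 stress, 13 hair shaft and 8 inner root sheath keratins, with 2 of the companion layer and the sebaceous duct, 5 of simple epithelia, 5 of mucosa, cornea or footpad and 7 others. Both genotypes were BL6 mice, matched for sex and age according to the labels, all were irradiated, and the back had been shaved the day before. Cbl-b-/- mice, spelled clb-b -/- in the labels, lack the E3 ubiquitin ligase Cbl-b, and whole dorsal skin holds follicles, dermis and fat beside the epidermis. The ages, the sexes and the stage of the hair cycle are not given in the sources used here, and arrays of skin without irradiation were not analysed here.

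Keratins are the intermediate filament proteins of epithelial cells. A filament is built from pairs of a type I and a type II keratin, so the genes are used in fixed partnerships. KRT5 with KRT14 fills the basal layer of the epidermis, KRT1 with KRT10 replaces them as cells differentiate, and KRT6 with KRT16 and KRT17 appears within hours to days of injury, irritation or hyperproliferation, while also being made in parts of the hair follicle. Hair shaft keratins and inner root sheath keratins are made above the matrix of the growing (anagen) follicle and are switched off when the follicle regresses and rests, so in whole skin their RNA follows the hair cycle.

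Differences between the genotypes are given below as log2 values, Cbl-b-/- minus WT, with the standard error (SE) from limma. As a check of the labels, Cblb did not overlap between the genotypes and was lower in the knockout, with a difference of -1.12 (SE 0.092, limma adjusted p = 0.0782). The keratinocyte markers Dsc3, Lor, Ivl, Perp, Trp63 and Sfn lay above the median of each array in 6 of 6 cases. Array medians ran from 6.30 to 6.34 and correlations between arrays from 0.980 to 0.993. WT replicate 3 stood apart in its follicle genes and Cbl-b-/- replicate 2 in its stress keratins, adipocyte and muscle genes, as described with the results, and keratin results that rest on them are given with and without them. Values are on the log2 scale of the deposited table throughout. The study's thresholds (unadjusted p under 0.05 and 1.5-fold or more) were read from limma here, and p-values were adjusted by the Benjamini-Hochberg procedure across the 35556 transcript clusters. Precision is limited by the number of arrays, and for 1 gene at 3 against 3 arrays the smallest two-sided p of an exact permutation test is 0.10.

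The keratins of the hair follicle moved together across arrays, and the sequences around their start sites are shown for this reason. RefSeq windows of 300 bases (250 before to 50 after the start of the gene, GRCm38.p6) were at hand for 36 of the 52 keratins. They were searched on both strands for the TATA box TATAAA, the LEF/TCF motif CTTTGAA, the AP-1 motif TGANTCA and the GC box GGGCGG, and matches of different motifs did not overlap in a keratin window. LEF1 is a transcription factor of the hair matrix through which Wnt signals act. The windows of a hair shaft keratin (Krt31, chr11:100050502-100050801), of the inner root sheath partners Krt25 (chr11:99322902-99323201) and Krt71 (chr15:101743048-101743347), and of the suprabasal Krt10 (chr11:99389315-99389614), all on the minus strand, read as follows, with TATA box and LEF/TCF matches in capitals.
Krt31: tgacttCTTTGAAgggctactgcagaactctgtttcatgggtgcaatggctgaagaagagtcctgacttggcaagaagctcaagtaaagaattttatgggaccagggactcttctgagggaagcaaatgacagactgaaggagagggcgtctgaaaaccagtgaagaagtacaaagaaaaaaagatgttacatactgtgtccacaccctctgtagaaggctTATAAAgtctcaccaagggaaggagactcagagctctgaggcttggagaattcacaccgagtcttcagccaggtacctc
Krt25: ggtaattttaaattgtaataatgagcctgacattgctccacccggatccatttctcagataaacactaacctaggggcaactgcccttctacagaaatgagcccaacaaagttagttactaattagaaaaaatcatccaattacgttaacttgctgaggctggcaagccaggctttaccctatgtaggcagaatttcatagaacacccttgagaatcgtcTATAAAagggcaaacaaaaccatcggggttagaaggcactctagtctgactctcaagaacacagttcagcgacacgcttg
Krt71: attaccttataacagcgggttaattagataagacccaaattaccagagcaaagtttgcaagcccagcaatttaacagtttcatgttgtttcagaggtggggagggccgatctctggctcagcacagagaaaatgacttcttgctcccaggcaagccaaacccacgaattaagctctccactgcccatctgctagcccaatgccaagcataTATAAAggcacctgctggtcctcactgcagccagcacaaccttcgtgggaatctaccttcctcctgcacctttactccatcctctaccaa
Krt10: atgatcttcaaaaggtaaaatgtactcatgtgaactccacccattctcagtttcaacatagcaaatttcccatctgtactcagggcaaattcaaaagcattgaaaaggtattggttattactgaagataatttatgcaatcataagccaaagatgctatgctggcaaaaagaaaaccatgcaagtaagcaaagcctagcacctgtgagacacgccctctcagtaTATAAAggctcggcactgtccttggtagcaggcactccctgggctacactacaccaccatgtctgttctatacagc
A TATA box match was found in the windows of 7 of 7 inner root sheath and 6 of 9 hair shaft keratins. The share was 19 of 37 (51.4%) over all keratin windows and 13.6% over all 32851 windows. In Krt25, Krt26, Krt28 and Krt73 a match began at base -30 from the start site, the usual place of a TATA box. Not every match lay there. The only match of Krt27 began at -15, and those of Krt72 (-203) and Krt84 (-206) lay on the opposite strand. The LEF/TCF motif was found in 5 of 9 hair shaft windows and in 1 of 7 of the inner root sheath, that of Krt28, against 5.14% of all windows. None of the 20 other keratin genes with a window held it. The GC box was found in 2 of 37 keratin windows, those of Krt7 and Krt75, against 35.7% of all windows, and the AP-1 motif in 2 of 37, both of Krt13, against 7.81% of all. Windows were at hand for neither Krt6a, Krt6b, Krt16 nor Krt17. The LEF/TCF matches of the hair shaft windows are shown with up to 10 bases on either side (fewer where the window begins), the motif in capitals, which Krt39 holds on the opposite strand and Krt34 at 2 places.
Krt31: tgacttCTTTGAAgggctactgc
Krt32: gccCTTTGAAgatgtgtctt
Krt33b: ttaCTTTGAAgccaaaccat
Krt34: aatctgcctcCTTTGAAggcatctaat
Krt34: aggggggactCTTTGAAagcaatctaa
Krt39: atataagcacTTCAAAGgagaaaagcc
In Krt31, Krt32, Krt33b and Krt34 a match began between bases -247 and -240 from the start site. These 4 genes lie next to one another in the cluster, and whether their matches arose independently was not tested. A match is a description of letters and not evidence of binding.

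No keratin met the study's thresholds between irradiated Cbl-b-/- and WT skin. Of the 52, 0 were higher and 0 lower, beside 0.276% of all transcript clusters higher, 0.945% lower and 1.22% in either direction. An unadjusted p under 0.05 was reached by 0 keratins in limma (6.55% of all transcript clusters) and by 1, Krt4, in the study's own test (6.98% of all). At an adjusted p under 0.05 there were 0 keratins and 0.00281% of all transcript clusters. The differences lay between -0.76 and 0.19, and their median was -0.16 beside 0.020 over all transcript clusters. Krt4, a keratin of mucosal epithelium, was the 1 keratin whose genotypes did not overlap (8.66% of all transcript clusters lay higher in this way and 4.89% lower), with 5.26, 5.24 and 5.33 in Cbl-b-/- against 5.13, 5.05 and 5.18 in WT skin and a difference of 0.16 (SE 0.077, limma adjusted p = 0.751). These counts do not show that the genotypes had the same keratin levels, because the standard errors of many members were large. Part of the family spread widely between mice. The gap between the highest and the lowest array exceeded 2 on the log2 scale in 17 of 52 keratins, beside 1.08% of all transcript clusters. All 17 were hair shaft (7), inner root sheath (7) or stress (3) keratins. A wide spread was not particular to keratins, since 11 of 23 other listed hair follicle genes and 5 of 7 melanocyte genes also exceeded 2.

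The 3 basal keratins of the epidermis were abundant, and none met the thresholds. Krt5, the type II keratin of the basal layer, stood at 11.64, 11.80 and 11.45 in Cbl-b-/- replicates 1, 2 and 3 and 11.56, 11.68 and 11.28 in WT replicates 1, 2 and 3. Its difference was 0.12 (SE 0.14, limma adjusted p = 0.867). Krt14, its type I partner, stood at 11.26, 11.80 and 11.003 in Cbl-b-/- replicates 1, 2 and 3 and 11.35, 11.47 and 10.81 in WT replicates 1, 2 and 3, a difference of 0.15 (SE 0.25, limma adjusted p = 0.92). The genotypes overlapped in both genes, and both were lowest in WT replicate 3. Their 95% intervals, -0.21 to 0.46 for Krt5 and -0.46 to 0.75 for Krt14, hold a 1.5-fold difference for Krt14 but not for Krt5. For Krt14 the estimate turned to -0.055 without WT replicate 3 and to -0.078 without Cbl-b-/- replicate 2. Krt15, a basal keratin that is known to decline in activated epidermis and that marks the follicle bulge, showed a wider spread, with 9.62, 8.31 and 9.84 in Cbl-b-/- against 9.65, 9.69 and 8.95 in WT skin. Its lowest array was Cbl-b-/- replicate 2 and the next lowest WT replicate 3, while the other 4 arrays lay within 9.62 to 9.84. The difference of Krt15 was -0.17 (SE 0.42), and 0.30 without Cbl-b-/- replicate 2, -0.41 without WT replicate 3 and -0.46 without Cbl-b-/- replicate 3.

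None of the 5 keratins classed as suprabasal met the thresholds. Krt24 and Krt80, also of differentiating cells, were classed with the others and are given below. Krt10, the main type I keratin above the basal layer, averaged 12.31 ± 0.019 in the knockout and 12.24 ± 0.25 in WT skin (SD, n = 3 each), and Krt1, its partner, 11.73 ± 0.25 in the knockout and 11.54 ± 0.45 in WT skin (SD, n = 3 each). The difference was 0.072 (SE 0.13, limma adjusted p = 0.925) for Krt10 and 0.19 (SE 0.24, limma adjusted p = 0.888) for Krt1. Krt77, another suprabasal type II keratin, averaged 11.76 ± 0.28 in the knockout and 11.75 ± 0.34 in WT skin (SD, n = 3 each), and Krt78 stood at 6.71, 6.47 and 6.95 in Cbl-b-/- against 6.65, 6.74 and 6.18 in WT skin. WT replicate 3 was the lowest array in 4 of the 5, all but Krt2, against 19.7% of all transcript clusters. Without that array the differences of Krt1 (-0.072), Krt10 (-0.073) and Krt77 (-0.18) turned below 0. Krt2, a keratin of the upper layers that is abundant in ear and tail skin, had a mean under the median of all rows, with 4.24, 4.89 and 4.56 in Cbl-b-/- against 4.26, 4.25 and 4.66 in WT skin and a difference of 0.18 (SE 0.19). The files give no call of detection, so whether a level this low lies above background is not known. The 5 suprabasal keratins had a median difference of 0.18 in all arrays and of -0.072 without WT replicate 3.

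**Figure D1:**
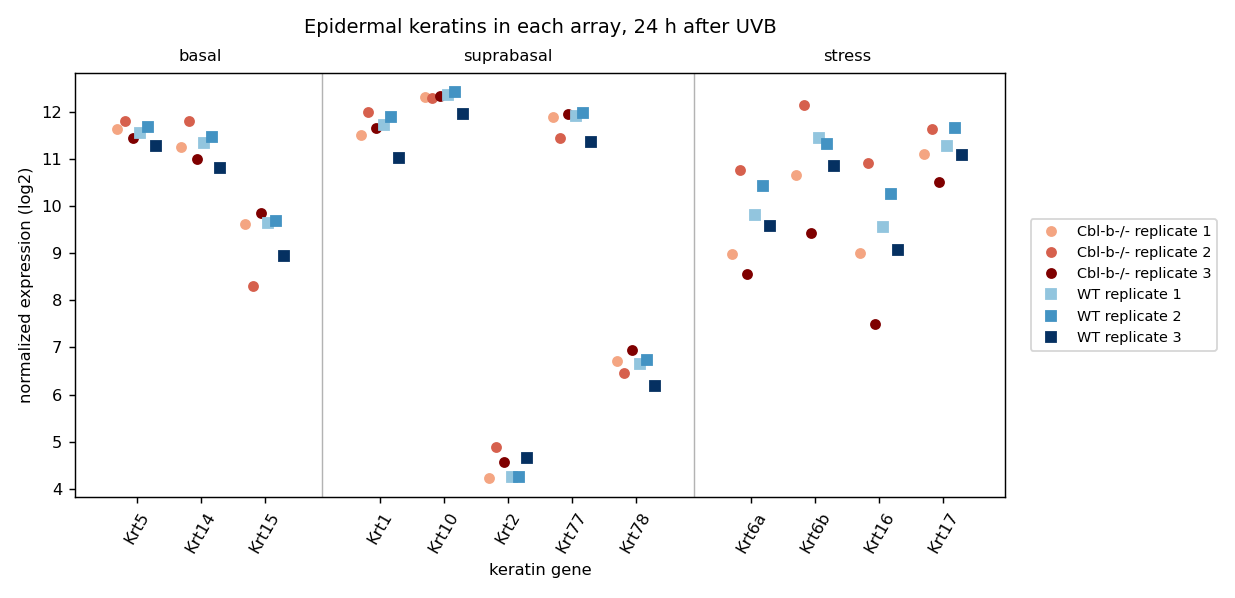
Normalized expression (log2, vertical axis) of the 12 basal, suprabasal and stress keratins (horizontal axis) in each array, Cbl-b-/- as circles and WT as squares. Basal and suprabasal keratins other than Krt15 span at most 0.99 between arrays, and the stress keratins 1.13 to 3.41. In the stress keratins Cbl-b-/- replicate 2 lies at or near the top and Cbl-b-/- replicate 3 at the bottom of all 4 genes.

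The stress keratins were spread more widely within the Cbl-b-/- group than between the genotypes. Krt6a, a type II keratin induced in injured epidermis, stood at 8.98, 10.77 and 8.57 in Cbl-b-/- replicates 1, 2 and 3 and 9.82, 10.43 and 9.58 in WT replicates 1, 2 and 3. Its close copy Krt6b stood at 10.67, 12.14 and 9.43 in Cbl-b-/- against 11.45, 11.32 and 10.85 in WT skin. Krt16, a type I partner of both, showed the widest spread of the 4, with 9.01, 10.91 and 7.50 in Cbl-b-/- against 9.56, 10.25 and 9.06 in WT skin. All 3 genes were highest in Cbl-b-/- replicate 2 and lowest in Cbl-b-/- replicate 3, with the WT arrays in between. Krt17, which is also made in the follicle outside of stress, varied less, with 11.10, 11.64 and 10.52 in Cbl-b-/- against 11.27, 11.65 and 11.08 in WT skin, and WT replicate 2 was its highest array. Over the 4 genes, Cbl-b-/- replicate 3 was the lowest array in 4 (20.3% of all transcript clusters were lowest there) and Cbl-b-/- replicate 2 the highest in 3 (18.2% of all).

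All 4 stress keratins had a difference below 0, with a median of -0.48. The value was -0.50 (SE 0.57, limma adjusted p = 0.871) for Krt6a, -0.46 (SE 0.63) for Krt6b, -0.49 (SE 0.82) for Krt16 and -0.25 (SE 0.29) for Krt17. None met the thresholds, and the 95% interval of Krt16, -2.46 to 1.48, holds large differences in either direction. The outcome rested on single Cbl-b-/- arrays. Without Cbl-b-/- replicate 2, Krt6a (-1.17, limma adjusted p = 0.572), Krt6b (-1.16) and Krt16 (-1.37) met the thresholds as lower in the knockout, 3 of 52 keratins beside 1.63% of all transcript clusters lower in that fit (0 keratins and 0.596% of all were higher). Without Cbl-b-/- replicate 3, Krt6b (0.19), Krt16 (0.33) and Krt17 (0.038) turned above 0. Krt6a and Krt6b are near-identical copies whose probes can share signal, as can those of Krt14, Krt16, Krt17 and Krt42, and the files give no values per probe, so their separate values are uncertain.

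Other genes followed the stress keratins across the Cbl-b-/- arrays, but not across the WT arrays. S100a8, an alarmin subunit of neutrophils and of activated keratinocytes, stood at 7.75, 10.32 and 6.602 in Cbl-b-/- against 8.84, 8.76 and 9.02 in WT skin, highest in Cbl-b-/- replicate 2 and lowest in Cbl-b-/- replicate 3. S100a9, its partner, had the same highest and lowest arrays, with 7.97, 10.39 and 7.20 in Cbl-b-/- against 8.83, 8.94 and 9.18 in WT skin. Tgm3, a transglutaminase that crosslinks keratins and trichohyalin, stood at 7.15, 9.67 and 6.76 in Cbl-b-/- against 8.16, 7.87 and 8.23 in WT skin. Among the WT arrays S100a8, S100a9 and Tgm3 were highest in WT replicate 3, where Krt6a, Krt6b, Krt16 and Krt17 were lowest. Without Cbl-b-/- replicate 2, S100a8 (-1.69), S100a9 (-1.40), Tgm3 (-1.13) and Itgam, an integrin chain of myeloid cells (-0.96), also met the thresholds as lower. These were 3 of 9 leukocyte genes and 1 of 19 filament partners, beside 1.63% of all transcript clusters lower in that fit. Genes of other cells met them there too. Pdgfra of fibroblasts was lower (-0.69, 1 of 7 genes). Plin1 (0.89) and Lep (1.08) of adipocytes were higher, 2 of 6 genes beside 0.596% of all transcript clusters. Over the 9 leukocyte genes, which include S100a8, S100a9 and Itgam, the mean level was 8.78 in Cbl-b-/- replicate 2, 7.89 in Cbl-b-/- replicate 3 and 8.36 to 8.65 in the WT arrays. The list was not uniform, since Cbl-b-/- replicate 2 was the highest array in 3 of 9 genes, S100a8 and S100a9 among them, and the lowest in 3 of 9, the T cell genes Cd3e and Cd3g and the class II gene H2-Aa. Cbl-b-/- replicate 2 also held the lowest mean level of the 6 measured adipocyte genes (8.18, with 8.59 to 9.86 in the others) and of the 7 skeletal muscle genes (9.40, with 9.96 to 10.81 in the others), and was lowest in 5 of 6 and 7 of 7 of these genes (13.7% of all transcript clusters). The part of these cell types in the stress keratin values was not tested. In bulk skin, fewer cells of a type and less RNA per cell cannot be told apart.

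The inner root sheath keratins spanned the widest range of any class. Krt25, a type I keratin of the sheath that moulds the growing hair, stood at 5.02, 7.88 and 7.71 in Cbl-b-/- replicates 1, 2 and 3 and 5.05, 5.09 and 10.94 in WT replicates 1, 2 and 3. WT replicate 3 thus lay 8.32-fold above the next array. Krt27, another type I sheath keratin, stood at 5.66, 7.39 and 7.87 in Cbl-b-/- against 5.37, 5.45 and 10.60 in WT skin. Krt71, the type II partner, stood at 5.35, 7.42 and 7.75 in Cbl-b-/- against 5.13, 5.19 and 10.76 in WT skin, and Krt72, of the sheath cuticle, at 5.52, 6.44 and 7.25 in Cbl-b-/- against 5.45, 5.47 and 9.27 in WT skin. Each gene fell into the same 3 levels, with WT replicate 3 at the top, Cbl-b-/- replicates 2 and 3 in the middle, and Cbl-b-/- replicate 1, WT replicate 1 and WT replicate 2 together at the bottom. WT replicate 3 was the highest array in 8 of 8 sheath keratins (16.8% of all transcript clusters were highest there). In 7 of 8, all but Krt74, both Cbl-b-/- replicates 2 and 3 lay above those 3 bottom arrays (11.2% of all). Krt74 spanned 1.17, against 3.82 to 5.92 in the others.

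The hair shaft keratins followed the same arrays over smaller gaps. Krt33a, a type I keratin of the hair cortex, stood at 5.25, 6.41 and 7.45 in Cbl-b-/- replicates 1, 2 and 3 and 5.09, 5.24 and 9.90 in WT replicates 1, 2 and 3, and its close copy Krt33b at 7.27, 7.52 and 7.81 in Cbl-b-/- against 7.24, 7.41 and 8.97 in WT skin. Krt34, of the cortex as well, stood at 6.18, 6.36 and 6.98 in Cbl-b-/- against 6.14, 5.85 and 7.29 in WT skin. Krt87, a type II hair keratin, stood at 6.67, 6.92 and 6.96 in Cbl-b-/- against 6.40, 6.25 and 9.07 in WT skin. WT replicate 3 was the highest array in 13 of 13, and in 11 of 13, all but Krt39 and Krt84, both Cbl-b-/- replicates 2 and 3 lay above Cbl-b-/- replicate 1, WT replicate 1 and WT replicate 2. Krt86, a type II cortex keratin, ran from 4.06 in WT replicate 1 to 9.19 in WT replicate 3, the largest gap of this class (5.13), and Krt40, of the cuticle, the smallest (1.08). Krt33a was 1.03 higher in Cbl-b-/- replicate 3 than in replicate 2 and Krt86 1.10 higher. Replicate 3 exceeded replicate 2 in 10 of 13 hair shaft and 5 of 8 sheath keratins, beside 47.8% of all transcript clusters, and the classes were not tested against each other. Hair keratins are close relatives, and signal shared between copies such as Krt33a and Krt33b, or between Krt86 and Krt87, cannot be separated here. Krt81, Krt83 and Krt85 have no transcript cluster of their own symbol and were not analysed here.

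**Figure D2:**
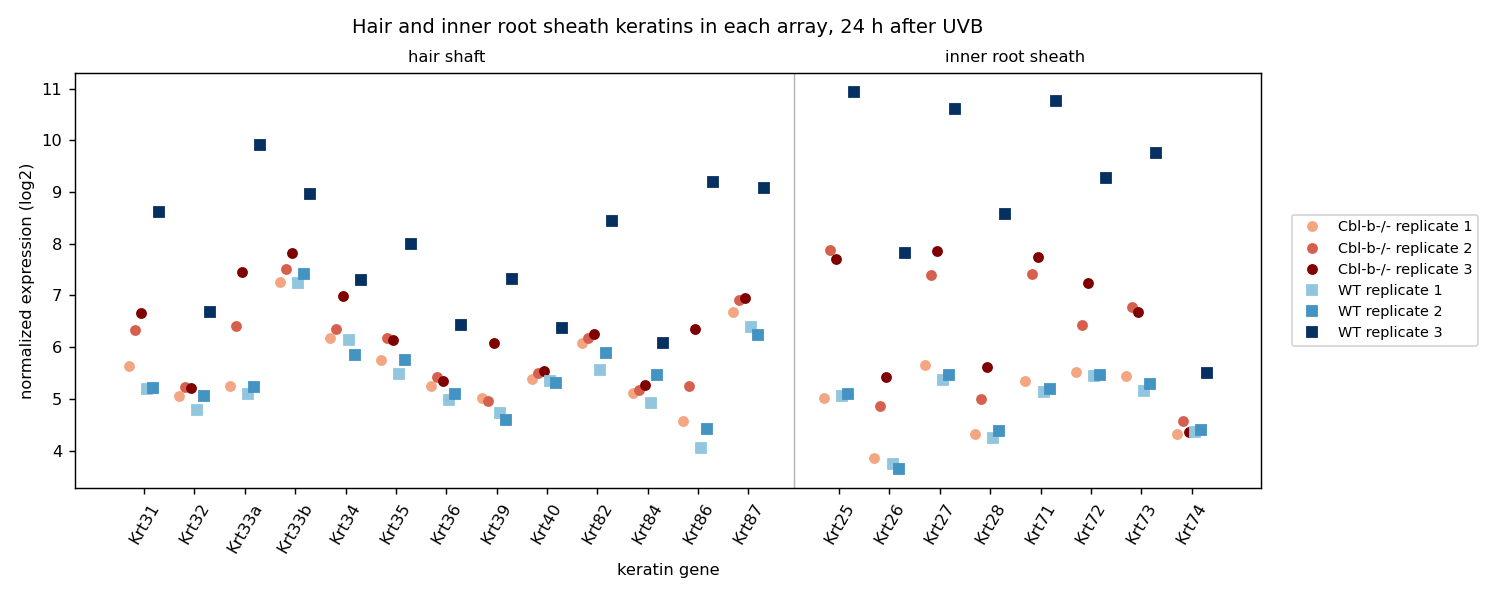
Normalized expression (log2, vertical axis) of 13 hair shaft and 8 inner root sheath keratins (horizontal axis) in each array, Cbl-b-/- as circles and WT as squares. WT replicate 3 is the highest array in all 21 genes, and Cbl-b-/- replicates 2 and 3 form a middle level in most of them.

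The direction of the genotype difference in the follicle keratins depended on WT replicate 3. With all arrays, 20 of 21 hair and sheath keratins had a difference below 0 and Krt34 one of 0.076, with standard errors of 0.27 to 1.70. The 95% interval was -4.23 to 3.92 for Krt25 and -3.58 to 2.83 for Krt33a. The median was -0.34 for the hair shaft and -0.33 for the sheath. Without WT replicate 3 it was 0.45 and 1.05, and 20 of 21 lay above 0, all but Krt84 (-0.0038). In that fit Krt31, a hair cortex keratin (1.01, SE 0.30), and Krt73, of the sheath cuticle (1.08, SE 0.42), met the study's thresholds as higher in Cbl-b-/- skin, 2 of 52 keratins beside 0.326% of all transcript clusters, each with a limma adjusted p of 0.633. Krt87 (0.53), Krt82 (0.45) and Krt36 (0.30) reached an unadjusted p under 0.05 there without the 1.5-fold difference, which with Krt31, Krt73 and Krt24 makes 6 of 52 keratins (7.79% of all transcript clusters). In Krt31, Krt73, Krt87, Krt82 and Krt36 each Cbl-b-/- array lay above WT replicates 1 and 2. Krt82, for one, stood at 6.07, 6.18 and 6.26 in Cbl-b-/- skin against 5.56 and 5.88. Over the 13 hair shaft keratins the mean level was 5.63, 5.96 and 6.31 in Cbl-b-/- replicates 1, 2 and 3. It was 5.38 and 5.50 in WT replicates 1 and 2. Over the 8 sheath keratins it was 4.94, 6.29 and 6.58 against 4.81 and 4.87. Cbl-b-/- replicate 1 was thus nearer to these 2 WT arrays in the class means, most clearly in the sheath.

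**Figure D3:**
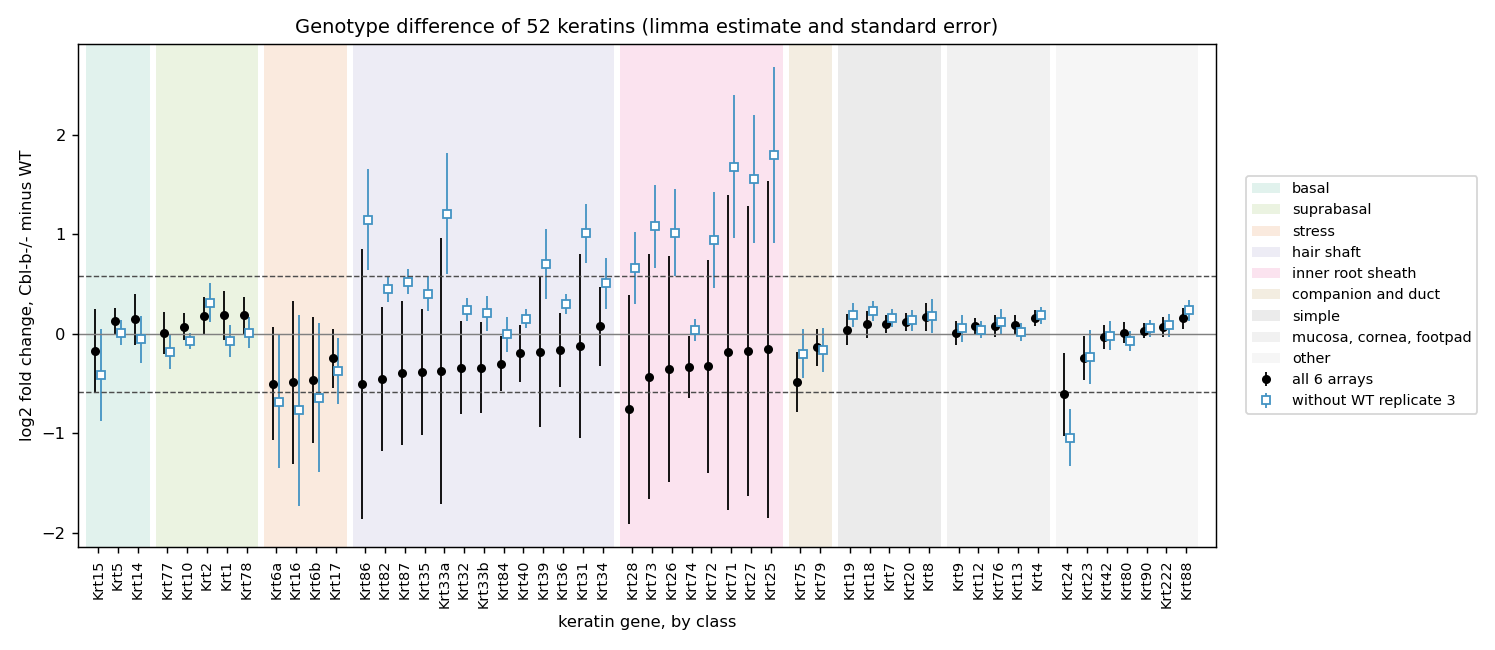
Log2 fold change (Cbl-b-/- minus WT, vertical axis) with its standard error for 52 keratins (horizontal axis, grouped by class), from all 6 arrays (filled circles) and without WT replicate 3 (open squares), with dashed lines at 1.5-fold. Hair shaft and inner root sheath keratins pass from below to above 0 once WT replicate 3 is left out, while most other keratins stay near 0.

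Most of the listed hair follicle genes that are no keratins were also highest in WT replicate 3. Not all of them are particular to the growing follicle. Of the 23 listed, 20 were highest in WT replicate 3 (16.8% of all transcript clusters). With all arrays 0 met the thresholds in either direction (1.22% of all). The median difference was -0.20, or 0.36 without WT replicate 3. In the fit without that array 9 of 23 reached an unadjusted p under 0.05 in limma (7.79% of all transcript clusters). There 0 met the thresholds, beside 0.326% of all higher and 1.11% lower. The place of Cbl-b-/- replicate 2 was less regular than in the keratins. Cbl-b-/- replicate 3 lay above Cbl-b-/- replicate 1, WT replicate 1 and WT replicate 2 in 18 of 23, and Cbl-b-/- replicate 2 in 14 of 23. Cbl-b-/- replicate 2 was the lowest array in 5 of 23, Foxq1, Sox9, Lhx2, Sostdc1 and Gata3. Tchh, trichohyalin of the inner root sheath, stood at 5.84, 7.86 and 8.41 in Cbl-b-/- against 5.78, 5.99 and 10.92 in WT skin. Hoxc13, a transcription factor that drives hair keratin genes, stood at 5.94, 6.17 and 7.14 in Cbl-b-/- against 5.63, 5.95 and 8.92 in WT skin, and Msx2, of the hair matrix, at 6.22, 6.45 and 6.71 in Cbl-b-/- against 6.03, 5.92 and 9.02 in WT skin. Lef1 stood at 6.51, 6.66 and 6.79 in Cbl-b-/- against 6.09, 6.31 and 8.95 in WT skin, with a difference of -0.46 (SE 0.73), and 0.45 without WT replicate 3. Foxn1, which controls differentiation of the hair shaft, ran from 7.18 in WT replicate 1 to 8.61 in WT replicate 3. Gata3, a factor of the inner root sheath that epidermis and lymphocytes also express, was not highest there, with 10.59, 9.93 and 10.81 in Cbl-b-/- against 10.32, 10.09 and 10.42 in WT skin, nor was Odc1, an enzyme of polyamine synthesis, with 9.08, 9.91 and 8.67 in Cbl-b-/- against 9.08, 9.42 and 9.21 in WT skin. Melanocyte genes were highest in WT replicate 3 in 7 of 7 cases, where their mean level was 8.46 against 5.99 to 6.41 in the other arrays. Dct, an enzyme of melanin synthesis, stood at 6.38, 7.05 and 7.13 in Cbl-b-/- against 6.28, 6.90 and 9.93 in WT skin, and Mitf, the regulator of the lineage, at 8.27, 7.60 and 8.46 in Cbl-b-/- against 8.28, 8.05 and 8.66 in WT skin. The stage of the hair cycle was not given per mouse, and its part in these values was not tested.

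**Figure D4:**
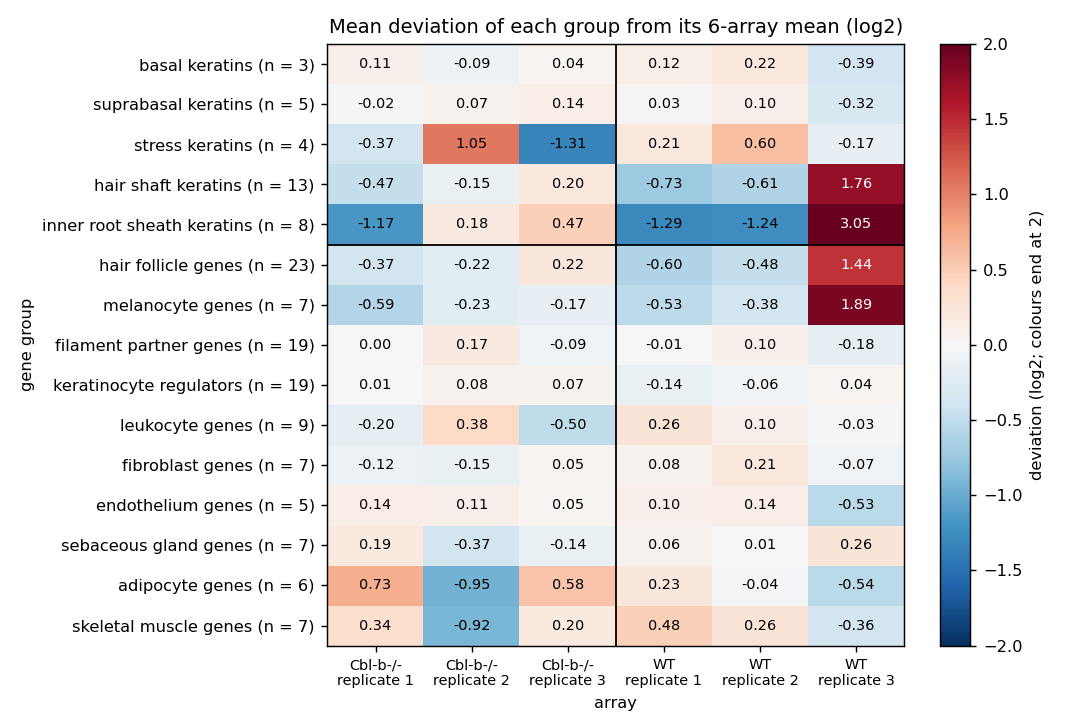
Mean deviation (log2, colour and printed value) of each group of genes (rows) from its mean over the 6 arrays (columns). Hair shaft keratins stand 1.76 and inner root sheath keratins 3.05 above their mean in WT replicate 3, stress keratins 1.05 above in Cbl-b-/- replicate 2 and 1.31 below in Cbl-b-/- replicate 3.

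The keratin genes lie in 2 clusters, with 27 of the members on chromosome 11, type I without exception, and 25 on chromosome 15, where all are type II but Krt18. Neighbouring genes of different classes differed widely in their spread between arrays. On chromosome 11 the sheath genes Krt25, Krt26, Krt27 and Krt28 are neighbours and spanned 4.17 to 5.92. The next gene, Krt10, spanned 0.46, and Krt12, a keratin of the cornea that follows it, 0.18. On chromosome 15 the basal gene Krt5 spanned 0.51 between the stress gene Krt6a (2.20) and the sheath gene Krt71 (5.63). At the far end of the hair block of chromosome 11, Krt36 (1.45) is followed by Krt13 (0.32), a mucosal keratin. This is a description along the gene order, without a test.

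**Figure D5:**
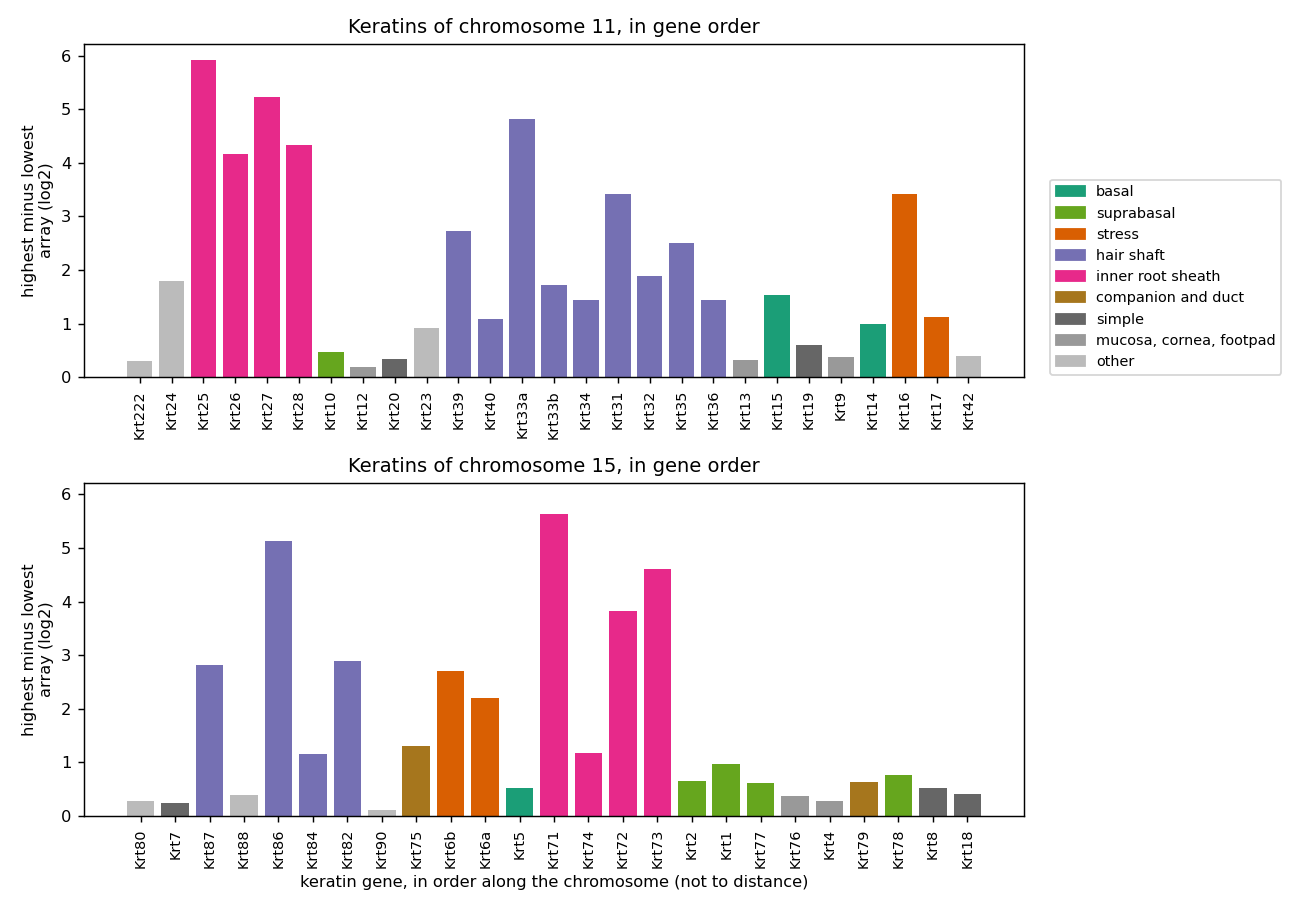
Highest minus lowest of the 6 arrays (log2, vertical axis; bars start at 0) for each keratin in its order along chromosome 11 (top) and chromosome 15 (bottom), coloured by class. Blocks of sheath and hair shaft genes with wide spreads stand beside genes such as Krt10 (0.46) and Krt5 (0.51) with narrow ones.

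Among keratins of other sites, those of simple epithelia and of mucosa, cornea or footpad had narrow spans, and Krt24 (1.80) and Krt75 (1.30) wider ones. Krt75, of the companion layer between the root sheaths, stood at 8.57, 8.003 and 8.23 in Cbl-b-/- against 8.15, 8.78 and 9.31 in WT skin, a difference of -0.48 (SE 0.30, limma adjusted p = 0.783), which met the thresholds without WT replicate 1 (-0.78), 1 of 52 beside 1.04% of all transcript clusters lower in that fit. WT replicate 3 was its highest array, and without it the difference was -0.20. Krt79, of the upper follicle and the sebaceous duct, averaged 10.75 ± 0.33 in the knockout and 10.89 ± 0.20 in WT skin (SD, n = 3 each). The 5 keratins of simple epithelia had differences of 0.039 to 0.17 and spans of 0.24 to 0.61. Among them, Krt8 stood at 7.25 in Cbl-b-/- replicate 2 and at 6.74 to 6.81 in the other arrays. The 5 keratins of mucosa, cornea or footpad spanned at most 0.38, and all 5 had means under the median of all rows. Krt80, a keratin of differentiating epithelia, averaged 10.12 ± 0.10 in the knockout and 10.11 ± 0.15 in WT skin (SD, n = 3 each). Krt23 stood at 8.30, 7.67 and 8.59 in Cbl-b-/- against 8.40, 8.44 and 8.44 in WT skin, lowest in Cbl-b-/- replicate 2. Krt24, a type I keratin of differentiating keratinocytes, spanned the most of the 7 others, with 7.42, 6.87 and 7.56 in Cbl-b-/- against 7.98, 8.67 and 7.02 in WT skin and a difference of -0.61 (SE 0.41, limma adjusted p = 0.796). It was lower in every Cbl-b-/- array than in WT replicates 1 and 2 and overlapped WT replicate 3. Without that array it met the thresholds as lower (-1.04, SE 0.28, limma adjusted p = 0.633), 1 of 52 beside 1.11% of all transcript clusters.

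Genes that anchor or regulate keratins stayed under the thresholds too, but in lists this short a count of 0 is near the share over all genes. Of 19 measured partners of the filaments, 0 were higher and 0 lower, beside 0.276% and 0.945% of all transcript clusters. Their median difference was 0.079. The list holds desmosomal and hemidesmosomal proteins, plakins, crosslinking enzymes, filament-aggregating proteins and Fam83h. Hrnr, a hornerin of the granular layer, stood at 11.58, 11.998 and 11.95 in Cbl-b-/- against 11.89, 12.06 and 11.67 in WT skin, and Perp, a desmosomal membrane protein, at 11.72, 11.83 and 11.77 in Cbl-b-/- against 11.74, 11.79 and 11.72 in WT skin. Pkp1, a desmosomal plaque protein, did not overlap between the genotypes and was higher in Cbl-b-/- skin, by 0.19 (SE 0.10), 1 of 19 partners beside 8.66% of all transcript clusters. Of 19 measured transcriptional regulators of keratinocytes, 0 met the thresholds, beside 1.22% of all transcript clusters. A difference above 0 was seen in 15 of the 19, and the median was 0.12. Klf5, a factor of basal keratinocytes, stood at 10.11, 10.23 and 10.25 in Cbl-b-/- against 9.92, 9.79 and 9.77 in WT skin, a difference of 0.37 (SE 0.083, limma adjusted p = 0.661). Klf4, which promotes the differentiation of the barrier, stood at 9.49, 9.66 and 9.98 in Cbl-b-/- against 9.28, 9.20 and 9.44 in WT skin (0.40, SE 0.14), and Cebpa, another factor of differentiation, differed by 0.27 (SE 0.10). In these 3 genes, and in Trp63, the master regulator of stratified epithelium (0.12, SE 0.078), the genotypes did not overlap, which 4 of 19 regulators and 8.66% of all transcript clusters showed as higher. Klf5, Klf4 and Cebpa were the 3 of 19 regulators at an unadjusted p under 0.05 in limma, beside 6.55% of all transcript clusters, and 2 of 19 reached it in the study's own test, beside 6.98% of all. Nfe2l2, the regulator of antioxidant genes that also acts on stress keratins, differed by 0.12 (SE 0.087), and Zfp750, of late differentiation, by 0.23 (SE 0.16).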

How the data were processed

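RNA of dorsal skin from 3 Cbl-b-/- and 3 WT mice was measured on 6 arrays, and each array was placed by the genotype in its label. The deposited values are log2 expression, which the authors computed by robust multichip average (background correction, quantile normalization across arrays, median polish) in Partek Genomics Suite, version 6.6 in the methods and 6.5 in the submitters' processing notes. Quantile normalization makes arrays alike in distribution, so values are relative within an array. Whether other arrays were normalized together with these is not given in the sources used here.

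Of 35556 transcript clusters, 21789 carry 1 gene symbol in the platform annotation, 1621 several and 12146 none. For a gene with several clusters the one with the highest mean was used. All 52 keratin symbols matched RefSeq. Genotypes were compared with limma 3.58.1 in R 4.3.3 on all transcript clusters without a filter, tested on simulated data. The methods' one-way ANOVA, called the study's own test, cyclic loess, a filter on dim rows, array weights, a replicate block and leaving out each array were alternatives. The labels give no batch. The keratins named are all of the basal, suprabasal, stress, companion and duct classes, the 4 with the highest mean of the hair and of the sheath class, any at an unadjusted p under 0.05 or without overlap, and the 2 of the rest with the highest mean, with the 2 of highest mean in each other list. Further genes were named after their values were seen. The members and lists were chosen with earlier results of these data known.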

Additional observations from a re-analysis of the deposited data

How the results depend on the processing

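Under the alternatives, no keratin met the study's thresholds in the study's own test, after cyclic loess between arrays, without the dim rows or with the replicate number as a block. With array weights 1 keratin did, Krt24, as lower. With 1 array left out at a time, 0 to 3 keratins met them, 0 to 2 as higher and 0 to 3 as lower. Over all transcript clusters 434 met them, 267 in the study's own test, 176 without the dim rows, and 428 to 790 with 1 array left out. At an adjusted p under 0.05 there was 1 transcript cluster, 2 in the study's own test, 9 without the dim rows, 12 with array weights, and 1 to 2 with 1 array left out. In the lists of filament partners, sebaceous gland genes and fibroblast genes 0 to 1 met the thresholds with 1 array left out, in that of adipocytes 0 to 2 and in that of leukocytes 0 to 3, against 0 in each with all arrays. The median of the suprabasal keratins was -0.015 with array weights and ran from -0.072 to 0.18 with 1 array left out.

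With array weights the log2 fold change changed sign in Krt1 (-0.022), Krt10 (-0.015), Krt77 (-0.077), Krt33a (0.059), Krt87 (0.050), Krt25 (0.31), Krt27 (0.31), Krt71 (0.32) and Krt72 (0.041). After cyclic loess it changed sign in Krt77 (-0.016) and Krt80 (-0.0046). The cause was not tested. With 1 array left out it ran from -0.078 to 0.32 in Krt14, -0.46 to 0.30 in Krt15, -0.072 to 0.36 in Krt1, -0.073 to 0.16 in Krt10 and -0.18 to 0.17 in Krt77. For the stress keratins it ran from -1.16 to 0.19 in Krt6b, -1.37 to 0.33 in Krt16 and -0.52 to 0.038 in Krt17. For the follicle it ran from -1.20 to 1.21 in Krt33a, -0.66 to 0.21 in Krt33b, -0.21 to 0.51 in Krt34, -0.89 to 0.53 in Krt87, -1.14 to 1.80 in Krt25, -1.06 to 1.56 in Krt27, -1.14 to 1.68 in Krt71 and -0.97 to 0.94 in Krt72, and elsewhere from -0.31 to 0.0018 in Krt79, -0.44 to 0.015 in Krt23 and -0.072 to 0.071 in Krt80.

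The replicate numbers of the titles were also fitted as a block, which gave 453 transcript clusters at the thresholds in place of 434 and 0 keratins as before. Deviations from the group means correlated at 0.23, 0.092 and 0.25 in same-numbered arrays, and WT replicate 2 correlated better with Cbl-b-/- replicate 1 (0.23) than with replicate 2, so the numbers were not taken as pairs. Every keratin has 1 transcript cluster, so the choice between several rows of a gene could not change a value. The files give no call of detection, and 25 of 52 keratins had means under the median of all rows.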

Other observations

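Intermediate filament genes of other cells differed less between arrays than the follicle keratins. All 14 listed genes were measured, and 0 met the thresholds, beside 1.22% of all transcript clusters. Their spans ran from 0.16 to 0.91 on the log2 scale. Vim, the filament protein of fibroblasts and leukocytes, stood at 11.98, 12.03 and 11.86 in Cbl-b-/- against 11.89, 11.94 and 11.78 in WT skin, a difference of 0.086 (SE 0.087). Des, the filament protein of muscle, stood at 10.65, 9.996 and 10.38 in Cbl-b-/- against 10.69, 10.61 and 10.004 in WT skin, lowest in Cbl-b-/- replicate 2 and WT replicate 3. Lmnb1, a lamin of dividing cells, was highest in WT replicate 3, with 7.17, 7.33 and 6.87 in Cbl-b-/- against 6.87, 7.30 and 7.78 in WT skin. Nefh did not overlap between the genotypes and was higher in Cbl-b-/- skin (0.17, SE 0.088), 1 of 14 genes beside 8.66% of all transcript clusters.

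In the other lists of skin cells, 0 of 7 sebaceous gland, 0 of 7 fibroblast, 0 of 5 endothelium and 0 of 6 keratinocyte check genes met the thresholds with all arrays. The share over all transcript clusters was 1.22%, so counts of 0 in lists this short are near it. Scd1, a desaturase of sebaceous and fat cells, differed by -0.14 (SE 0.13) and Scd3, its sebaceous copy, by -0.065 (SE 0.30). Mc5r of the sebaceous list did not overlap between the genotypes and was lower in Cbl-b-/- skin (-0.53, SE 0.26). It was 1 of 7 genes, beside 4.89% of all transcript clusters. Cd207 of the leukocyte list did not overlap and was higher (0.23, SE 0.10), 1 of 9 genes beside 8.66% of all. The matrix genes Dcn and Col1a1 of fibroblasts differed by -0.0090 (SE 0.10) and -0.24 (SE 0.19). The endothelial genes had a mean level of 7.17 in WT replicate 3 and of 7.75 to 7.85 in the others. Cdh5, the cadherin of endothelium, differed by -0.018 (SE 0.19) and Emcn, endomucin, by 0.34 (SE 0.26). WT replicate 3 was the lowest array in 5 of 5 endothelial genes, and without it Emcn differed by 0.055. Car3 and Fabp4 of adipocytes differed by -0.067 (SE 0.30) and 0.21 (SE 0.51), Acta1 and Ckm of skeletal muscle by -0.11 (SE 0.25) and -0.27 (SE 0.37), H2-Aa and Lyz2 of leukocytes by -0.089 (SE 0.15) and -0.14 (SE 0.21), and Lor, of the cornified envelope, by -0.042 (SE 0.13). Without Cbl-b-/- replicate 2, the lowest array in most adipocyte and all muscle genes listed, Fabp4 differed by 0.72 and Ckm by 0.11.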
